A study of Mus musculus with 12 samples.

Results

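Transcripts of 36 aminoacyl-tRNA synthetase genes were examined in mouse embryonic fibroblast (MEF) cells, 20 genes for the enzymes of the cytosol and 16 for those of mitochondria. The members were chosen by gene symbol, with a final 2 in the symbol marking a mitochondrial enzyme, and the measured value that entered the choice of genes to test was a mean of at least 1 RPM (reads scaled to a library sum of 1000000) over the 6 libraries of a comparison. All 36 were listed among the 43280 entries of the table for the IDH2 mutant and among the 23930 entries of the table for 2-HG. In each of the tables, 35 members reached 1 RPM, with both groups above 1 RPM on average for every one of them, and only Pars2 of the 36 did not. The lowest mean among the genes tested was 1.89 RPM for Yars2 in the first table and 3.02 RPM for Sars2 in the second, whereas Pars2 lay at 0.121 and 0 RPM.

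The cells came from C57BL/6 embryos at embryonic day 13.5 and became immortal spontaneously during serial passage. The study's text does not say whether all 4 groups came from 1 immortalised line. In the first comparison, 3 libraries of cells stably expressing mutant IDH2 (2MUT) were set against 3 libraries of cells carrying the mock vector (Control), both labelled as untreated. The mutant was a FLAG-tagged human cDNA carried by a retrovirus, and transduced cells were selected with puromycin. The study also made cells with wild-type IDH2, but none are among the 12 libraries. The mutation and the added IDH2 protein therefore cannot be told apart in 2MUT. In the second comparison, 3 libraries of cells given 300 µM 2-HG for 24 h, 2-HG(+), were set against 3 libraries of cells given, by the labels, the solvent DMSO for 24 h, 2-HG(-). The study's text instead calls these cells non-treated, and the labels were followed here. The study's reagent list names the compound as octyl-(R)-2HG. 2-HG is the metabolite that mutant IDH enzymes make from α-ketoglutarate, and the design asks which changes the mutant and the added metabolite have in common. The labels do not say that libraries came from separate cultures, so the p-values measure the spread between these libraries, which may be technical.

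An aminoacyl-tRNA synthetase joins an amino acid to the tRNAs that carry its anticodons, which makes the charged tRNAs the ribosome uses. The cytosolic set serves the translation of nuclear-encoded messages, the mitochondrial set is encoded by separate nuclear genes for most amino acids and serves the few proteins of the mitochondrial genome, and Gars and Kars each supply the enzyme to both compartments. When charged tRNA runs short, the kinase Gcn2 (gene Eif2ak4) phosphorylates eIF2α and translation of the transcription factor Atf4 rises, and Atf4 is known to activate genes for many cytosolic synthetases and for amino acid synthesis and uptake.

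Depth was 6472439 to 7313602 reads in the libraries of the first table and 14959318 to 18363768 reads in those of the second. Of 9 fibroblast markers, 9 were above 1 RPM in every group. Their summed level was 14550 to 16550 RPM in Control and 13160 to 13620 RPM in 2MUT, and it was 21960 to 23610 RPM in 2-HG(-) and 15440 to 16460 RPM in 2-HG(+). Each of the marker lists of epithelium, endothelium and skeletal muscle summed to at most 2.94 RPM in any library. The 5 leukocyte markers summed to 11.1 to 13.4 RPM in 2-HG(-) and 7.74 to 9.67 RPM in 2-HG(+), nearly all of it Cd68, with 3 of the 5 at 0 in all libraries of each group. In the first table they summed to 6.98 to 12.4 RPM in Control and 6.47 to 6.95 RPM in 2MUT. The part of these marker differences in the results below was not tested, and in bulk RNA fewer cells of a type and less RNA per cell cannot be told apart.

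The cytosolic synthetases rose with 2-HG almost as a whole set. Of the 20 genes, 19 were higher in 2-HG(+) and 0 were lower, where 16.1% of the 10384 genes tested were called higher (limma on log2(RPM + 1), adjusted p under 0.05 over all genes tested). The number lower was also 0 by edgeR and DESeq2 on recovered reads and at an unadjusted p under 0.05. The median log2 change of the 20 was 1.08, beside -0.02 over all genes tested, and the changes ran from -0.09 to 1.59. In 11 of them the log2 change was above 1, which 2.2% of all genes tested passed in that direction. The 3 treated libraries lay above the 3 DMSO libraries for 19 of the 20 genes, and 22.2% of all genes tested were separated this way. The gene family was proposed with these results known, so the counts describe it.

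Gars, the glycyl-tRNA synthetase of both compartments, and Aars, which charges alanine, had the largest fitted changes, and their order is not resolved. Gars was read at 230, 215 and 216 RPM in 2-HG(-) and at 686, 655 and 651 RPM in 2-HG(+). The groups lay far apart relative to their own spread, and the log2 change was 1.59 (SE 0.09, adjusted p = 2.6e-06). Aars was at 495, 635 and 615 RPM in 2-HG(-) and at 1918, 1718 and 1408 RPM in 2-HG(+), a log2 change of 1.53 (SE 0.14, adjusted p = 5.6e-05). The treated libraries varied more for Aars than for Gars, but the lowest of them stayed above every DMSO library.

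Atf4 is known to bind DNA together with C/EBP factors at a composite element, and the promoters of the members were searched for its letters. The windows from 250 bases before to 50 bases after each start in the RefSeq promoter set (GRCm38.p6) held an entry for 13 cytosolic and 14 mitochondrial genes, and no entry was found for Cars, Hars, Lars, Nars, Rars, Vars, Wars, Hars2 and Pars2. The letters TGATGNAA, searched on both strands, were found in the windows of 5 of the 13 cytosolic genes, in 0 of the 14 mitochondrial genes and in 4.51% of all 27025 genes with a window. The full palindrome TGACGTCA, the cAMP response element, was found in 0 of the 13 and 0 of the 14, and in 2.03% of all genes. The matches in Gars, Aars, Tars, Yars and Iars are printed below on the strand of the gene with the matched bases in capitals. The stretches of Gars and Tars run up to the start. The first Aars stretch is cut at 60 bases and ends before the start, and matches past the start are shown in 30 bases.
Gars, chr6:55037945-55038000, plus strand: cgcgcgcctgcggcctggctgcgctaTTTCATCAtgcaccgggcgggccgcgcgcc
Aars, chr8:111033704-111033763, plus strand: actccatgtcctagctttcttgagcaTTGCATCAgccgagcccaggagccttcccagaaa
Aars, chr8:111033840-111033869, plus strand: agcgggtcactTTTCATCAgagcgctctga
Tars, chr15:11399659-11399699, minus strand: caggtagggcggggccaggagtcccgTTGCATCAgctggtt
Yars, chr4:129189895-129189924, plus strand: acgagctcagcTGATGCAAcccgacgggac
Iars, chr13:49682126-49682155, plus strand: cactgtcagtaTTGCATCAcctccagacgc
Positions are counted from the start that the RefSeq promoter set uses. GENCODE M21 places the first base of the Aars gene at 111033144, that of Yars at 129189760 and that of Iars at 49682100, upstream of their matches, so the positions hold for the RefSeq starts only. The first matched base lay 30 bases before the start in Gars, 112 before it in Aars, and 15 before it in Tars. In Yars, Iars and the second Aars match it was base 4, base 8 and base 10 from that start. A match is a run of letters and does not show a bound site. The log2 changes of these 5 genes with 2-HG were 1.59, 1.53, 0.95, 1.27 and 1.09, and the cytosolic genes with a window and no match included Sars at 1.12 and Eprs at 1.18 as well as Qars at -0.09.

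**Figure D1:**
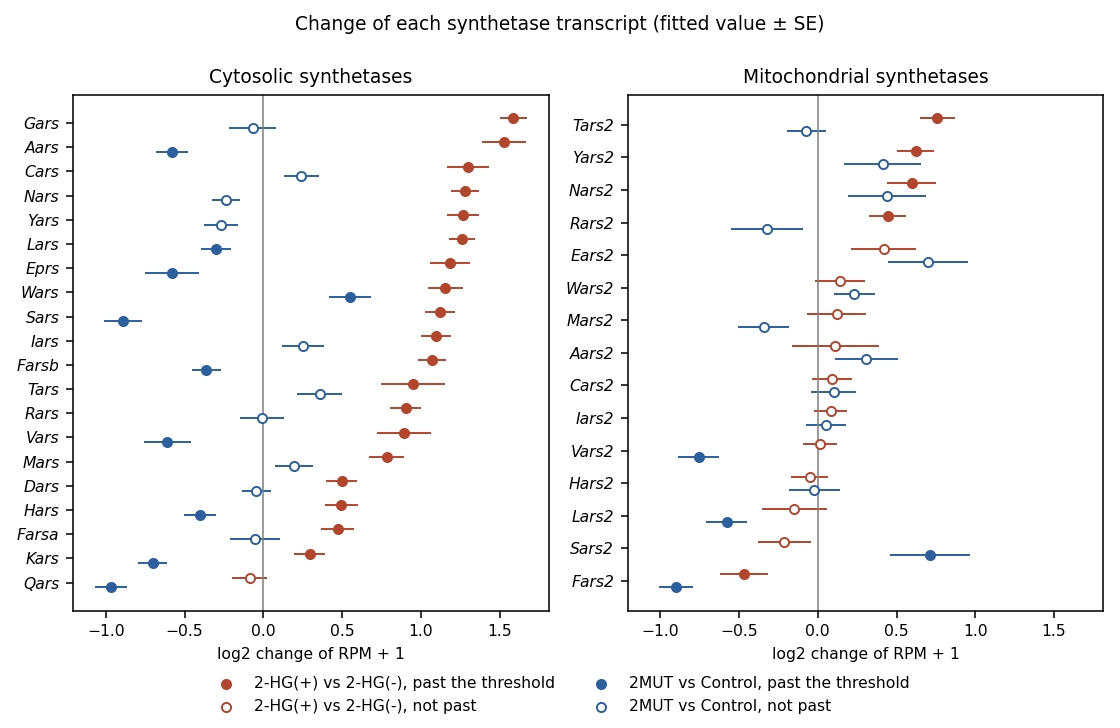
Fitted log2 change of RPM + 1 (points) with its standard error (bars) for the 20 cytosolic and 15 tested mitochondrial synthetase genes, 3 libraries against 3 in each comparison. Filled points passed an adjusted p of 0.05. With 2-HG, 19 cytosolic genes lie to the right of 0 as filled points and Qars lies at -0.09, while the 2MUT changes lie on both sides of 0.

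The next 4 cytosolic genes by size were close to each other. Cars, for cysteine, went from 65.4, 93.3 and 80.1 RPM to 213, 190 and 184 RPM (log2 change 1.30, SE 0.13, adjusted p = 0.0001). Nars, for asparagine, went from 356, 367 and 377 RPM to 932, 888 and 858 RPM (1.28, SE 0.09, adjusted p = 9.7e-06). For both genes every treated library was above every DMSO library by a wide margin. Yars, for tyrosine, rose from 97.9, 118 and 113 RPM to 273, 265 and 256 RPM (1.27, SE 0.10, adjusted p = 2e-05). Lars, for leucine, rose from 176, 184 and 182 RPM to 431, 436 and 438 RPM (1.26, SE 0.08, adjusted p = 7.2e-06). The SEs of these 4 genes exceed the differences between them, so their order is not resolved. The other 13 genes that rose had log2 changes from 0.29 for Kars to 1.18 for Eprs, the bifunctional enzyme for glutamate and proline.

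The exception was Qars, the glutaminyl-tRNA synthetase. It was at 91.9, 106 and 117 RPM in 2-HG(-) and at 95.8, 94.6 and 104 RPM in 2-HG(+), so the groups overlapped (log2 change -0.09, SE 0.11, adjusted p = 0.58). Kars, for lysine, was the weakest of the called genes, at 208, 194 and 214 RPM against 228, 264 and 265 RPM (0.29, SE 0.10, adjusted p = 0.045), and its call was lost under 10 of the 16 alternative settings (adjusted p from 0.0093 to 0.16). Some members overlap other genes. In GENCODE M21, 13 of the 36 genes share exon bases with another gene, among them Mars, for methionine (chr10:127296221-127311786, minus strand), with Ddit3 on the opposite strand, and Aars (chr8:111033144-111057664, plus strand) with Exosc6 on the same strand. Where the amplified targets lie within these genes was not used here, and reads of overlapping genes cannot be told apart.

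The rise crossed the structural groups of the family. Of the class I enzymes of the cytosol 8 of 9 were higher with 2-HG, and of the class II enzymes 10 of 10, with medians of 1.09 and 1.01, where 16.1% of all genes tested were higher. Eprs holds one enzyme of each class and was counted in neither. Members of the multi-synthetase complex, the large assembly of cytosolic synthetases, were higher in 7 of 8 cases (median 0.84), and those outside it in 12 of 12 (median 1.14). Of the 3 complex scaffold genes, Eef1e1 was higher (1.10, adjusted p = 3.7e-05), Aimp1 was higher (0.52, adjusted p = 0.0026) and Aimp2 did not pass (0.60, adjusted p = 0.081). The subunits of phenylalanyl-tRNA synthetase differed in size of change, with 1.07 for Farsb and 0.47 for Farsa.

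Among the mitochondrial synthetases with 2-HG the calls went both ways. Of the 15 tested, 4 were higher and 1 was lower, beside the 16.1% and 16.7% of all genes tested that were called in those directions, and the median log2 change was 0.11, with a range from -0.47 to 0.76. The log2(RPM + 1) scale understates the change of low genes, most of which are mitochondrial here, and the 2 sets were not tested against each other. Tars2, for threonine, rose from 30.2, 36.6 and 35.0 RPM to 60.2, 58.6 and 54.9 RPM (0.76, SE 0.11, adjusted p = 0.00083). Yars2, for tyrosine, rose from 19.5, 17.5 and 17.3 RPM to 26.4, 28.6 and 30.1 RPM (0.62, SE 0.12, adjusted p = 0.0031). The treated libraries of both genes were above all DMSO libraries. Nars2, for asparagine, was at 7.30, 9.09 and 7.39 RPM against 10.4, 12.8 and 14.4 RPM (0.60, SE 0.16, adjusted p = 0.017). Rars2, for arginine, was at 39.2, 47.3 and 40.9 RPM against 56.1, 63.9 and 54.0 RPM (0.44, SE 0.12, adjusted p = 0.017). These groups did not overlap either, but over 16 alternative settings the Nars2 call was lost in 5 (adjusted p from 0.0016 to 0.072) and the Rars2 call in 4 (0.0039 to 0.079).

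Fars2, the mitochondrial phenylalanyl-tRNA synthetase, fell with 2-HG. It was at 39.2, 28.3 and 38.3 RPM in 2-HG(-) and at 26.3, 21.5 and 27.3 RPM in 2-HG(+) (log2 change -0.47, SE 0.15, adjusted p = 0.041). All treated libraries were below the DMSO libraries, a separation found in 24.1% of all genes tested, by a small margin at the nearest pair, and the call was lost in 5 of 16 settings (adjusted p from 0.011 to 0.15). The 10 that did not pass had log2 changes from -0.21 for Sars2 to 0.42 for Ears2.

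**Figure D2:**
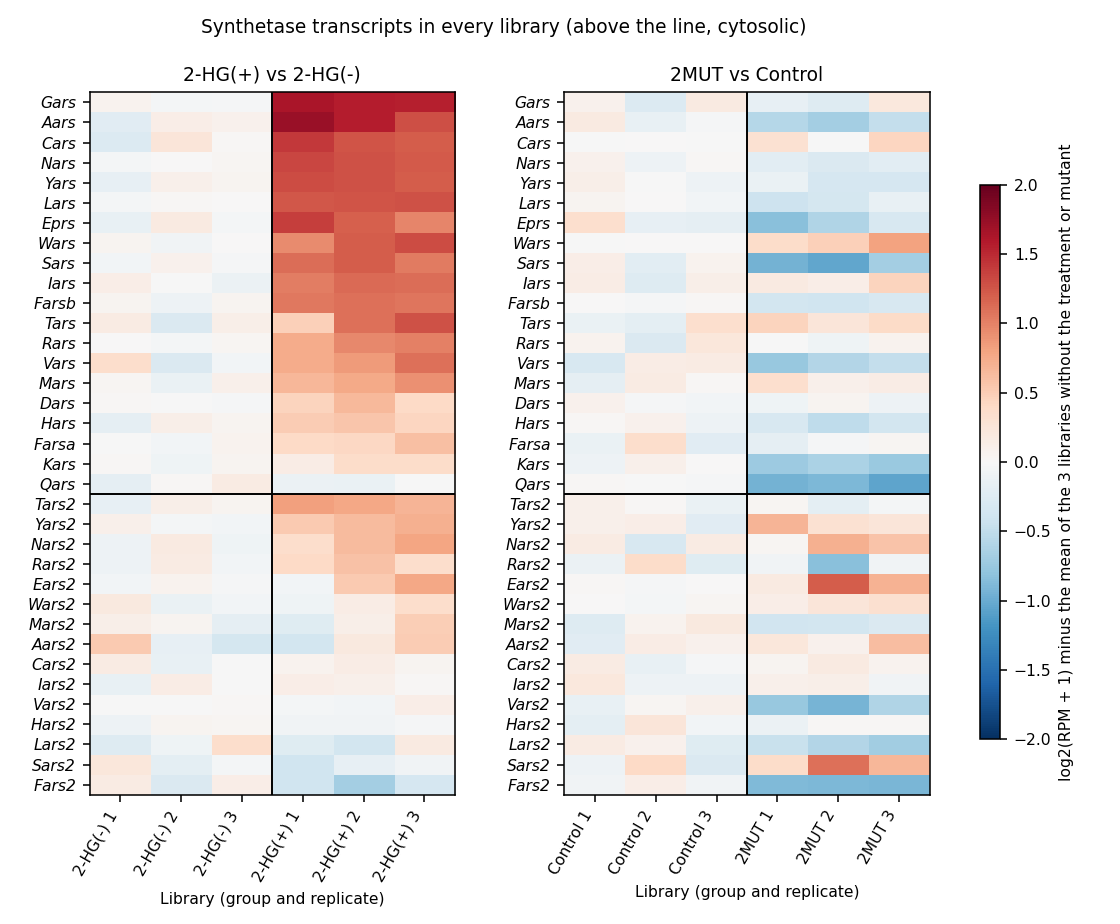
Log2(RPM + 1) of each synthetase gene (rows) in each library (columns) minus its mean over the 3 libraries of the group without 2-HG or mutant, in colour from -2 to 2, with 2-HG on the left and the mutant on the right. Cytosolic genes are above the black line. The 3 libraries of 2-HG(+) are red for 19 of the 20 cytosolic genes, while the 2MUT libraries show blue for Qars, Sars and Kars and red for Wars.

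The cytosolic shift was seen in each treated library. Relative to the DMSO mean, the median over the 20 cytosolic genes was 0.99, 1.12 and 1.08 on the log2 scale in the 3 libraries of 2-HG(+), and within 0.04 of 0 in the 3 of 2-HG(-). The mitochondrial medians in 2-HG(+) were -0.05, 0.15 and 0.35, so that library 1 differed from library 3 by more than the median change.

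For 13 amino acids a cytosolic and a mitochondrial gene could be set side by side. With 2-HG the cytosolic gene had the higher change in 13 of the 13 pairs, by a median of 0.88 on the log2 scale, from 0.19 for Tars and Tars2 to 1.41 for Aars and Aars2. The leucine pair also stood at 1.41, so the order of these pairs is not resolved. Aars2 was at 5.28, 2.87 and 2.40 RPM in 2-HG(-) and 2.38, 3.97 and 5.23 RPM in 2-HG(+), with overlapping groups (0.11, adjusted p = 0.78). Lars2 was at 4.03, 4.68 and 6.72 RPM against 4.10, 3.67 and 5.82 RPM (-0.15, adjusted p = 0.61), and Cars2 at 16.1, 12.8 and 14.2 RPM against 15.0, 16.0 and 14.8 RPM (0.09, adjusted p = 0.62). Neither gene separated the groups. The closest pair was that for threonine, in which Tars stood at 77.2, 56.2 and 75.1 RPM against 95.9, 149 and 168 RPM (0.95, SE 0.20, adjusted p = 0.006). For arginine, Rars went from 242, 234 and 246 RPM to 405, 469 and 483 RPM (0.90, SE 0.10, adjusted p = 0.00014). In 2MUT the cytosolic gene had the higher change in 8 of the 13 pairs, with a median difference of 0.15 and a range from -1.60 for the serine pair to 0.54 for the methionine pair. No test was made over the pairs.

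**Figure D3:**
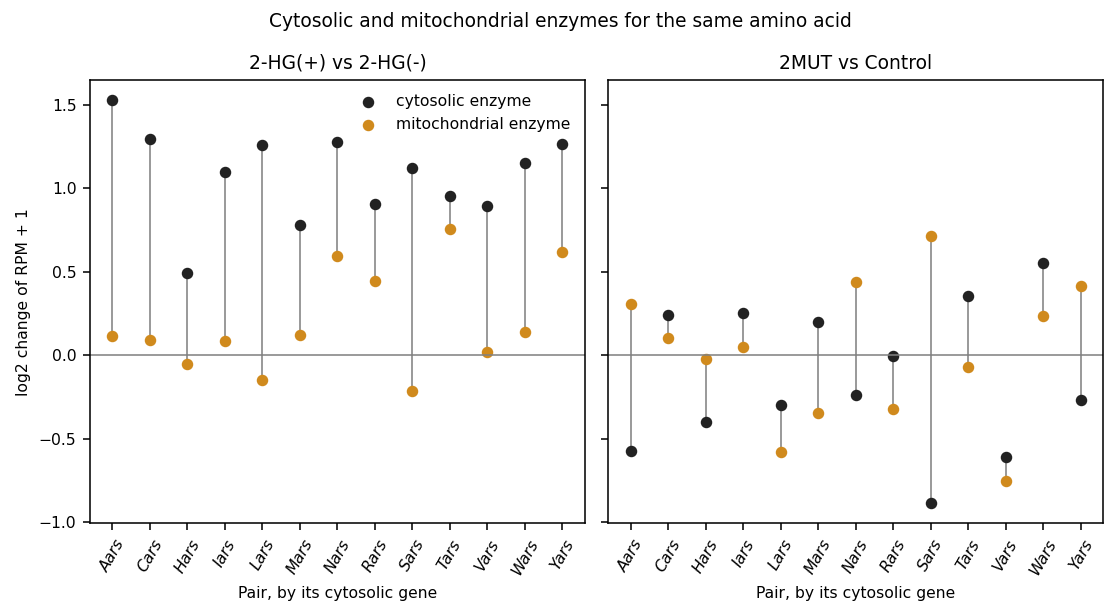
Log2 change of RPM + 1 of the cytosolic (black) and mitochondrial (orange) synthetase gene for each of 13 amino acids, joined by a grey line, with 2-HG and in 2MUT. With 2-HG every black point is above its orange partner, and in 2MUT 8 of the 13 are.

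In 2MUT cells the cytosolic synthetases did not rise as a set. Of the 20 genes, 1 was higher and 9 were lower than in Control, where 16.5% and 17.3% of the 11065 genes tested were called in those directions. The median log2 change was -0.25, beside 0.01 over all genes tested, with a range from -0.97 to 0.55. The 2MUT libraries lay below all Control libraries for 11 genes and above them for 1, shares to be read beside 24% and 23.5% of all genes tested.

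Among the cytosolic genes, Qars, which did not pass with 2-HG, and Sars, for serine, had the largest fitted falls, and their order is not resolved. Qars was at 127, 124 and 123 RPM in Control and at 64.6, 66.2 and 59.3 RPM in 2MUT (log2 change -0.97, SE 0.10, adjusted p = 4.8e-05). Sars was at 1094, 860 and 1048 RPM in Control and 515, 482 and 624 RPM in 2MUT (-0.89, SE 0.12, adjusted p = 0.00026). Both genes were lower in every 2MUT library. Kars was at 282, 326 and 307 RPM against 183, 195 and 183 RPM (-0.70, SE 0.09, adjusted p = 0.00023). Vars, for valine, was at 56.4, 77.9 and 79.0 RPM against 40.9, 46.6 and 50.1 RPM (-0.61, SE 0.15, adjusted p = 0.009). The Vars call was lost in 1 of 16 settings and the Kars call in 0.

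Eprs and Aars, which both rose with 2-HG, fell in 2MUT. Eprs was at 88.5, 62.5 and 61.9 RPM in Control and 38.9, 45.8 and 56.1 RPM in 2MUT (-0.58, SE 0.17, adjusted p = 0.022), with a narrow gap between the groups and a call lost in 5 of 16 settings (adjusted p from 0.0042 to 0.15). Aars was at 1991, 1578 and 1721 RPM against 1181, 1091 and 1263 RPM (-0.58, SE 0.10, adjusted p = 0.0014), with the groups well apart. Hars, Farsb and Lars also fell, by 0.40, 0.36 and 0.30 on the log2 scale, and the Lars call was lost in 7 of 16 settings (adjusted p from 0.023 to 0.13). Wars, for tryptophan, was the gene that rose, from 39.8, 40.3 and 40.6 RPM to 52.1, 56.7 and 70.9 RPM (0.55, SE 0.13, adjusted p = 0.0089). Its Control libraries were almost equal and all 2MUT libraries were above them. Gars, which rose with 2-HG, was at 161, 125 and 171 RPM against 135, 126 and 175 RPM with overlapping groups (-0.07, adjusted p = 0.76).

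Among mitochondrial synthetases in 2MUT, 3 of the 15 tested fell and 1 rose, with a median log2 change of 0.05. Over all genes tested 17.3% fell and 16.5% rose, so the count lower was near the background and the count higher below it. Fars2 fell from 86.1, 99.1 and 86.3 RPM to 48.5, 47.9 and 47.3 RPM (-0.90, SE 0.11, adjusted p = 0.00013). Vars2 fell from 61.6, 69.9 and 73.3 RPM to 40.0, 35.4 and 44.7 RPM (-0.76, SE 0.13, adjusted p = 0.0011), and Lars2 from 124, 118 and 93.5 RPM to 81.3, 73.8 and 68.0 RPM (-0.58, SE 0.13, adjusted p = 0.0056). For these 3 genes no 2MUT library reached the Control range. Sars2 was called higher at 3.85, 5.84 and 3.28 RPM against 5.72, 10.3 and 7.29 RPM (0.71, SE 0.25, adjusted p = 0.049). Its groups overlapped, it rested on 24 to 70 reads a library, and its call was lost in 9 of 15 settings (adjusted p from 0.026 to 0.19). Aars2 was at 7.69, 10.3 and 9.85 RPM against 11.0, 9.81 and 14.6 RPM (0.31, adjusted p = 0.25), and Wars2 at 24.6, 23.8 and 25.3 RPM against 27.0, 29.1 and 31.0 RPM (0.23, adjusted p = 0.20). Fars2 was the synthetase gene called lower in both comparisons, and Wars the one called higher in both.

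In the structural groups, the 2MUT falls included 4 of the 8 genes of the multi-synthetase complex and 5 of the 12 cytosolic genes outside it, with medians of -0.17 and -0.25, where 17.3% of all genes tested were lower and 16.5% higher. Of the class I cytosolic enzymes 3 of 9 were lower and 1 higher, and of the class II enzymes 5 of 10 were lower and 0 higher. The scaffold gene Aimp1 was lower (-0.55, adjusted p = 0.022) with overlapping groups, a call lost in 5 of 16 settings. Aimp2 at 0.50 did not pass. Eef1e1 at 0.11 (SE 0.34) did not pass either, but few reads limit it, 12 to 45 a library at a mean of 3.91 RPM.

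The changes in the 2 comparisons were then tested against each other, as the change in 2MUT minus the change with 2-HG over 12 libraries. A value below 0 means that the signed change was lower in 2MUT, whichever change was larger in size. The difference passed below 0 for 18 of the 20 cytosolic genes and above 0 for 0 of them, where 19.5% and 19.9% of the 9594 genes tested passed. The fitted difference was below 0 for the 20 cytosolic genes, with a median of -1.03 beside 0.05 over all genes tested. It was -2.10 for Aars (SE 0.19, adjusted p = 1.7e-06), -2.01 for Sars (SE 0.16, adjusted p = 6.5e-07) and -1.76 for Eprs (SE 0.23, adjusted p = 4.9e-05). Gars stood at -1.66 (SE 0.19, adjusted p = 1.2e-05). For Qars the difference was -0.88 (SE 0.14, adjusted p = 0.0003), from a change of -0.97 in 2MUT and -0.09 with 2-HG. For Kars it was -0.997, from -0.70 and 0.29. Farsa (-0.53, adjusted p = 0.051) and Tars (-0.60, adjusted p = 0.11) did not pass. Of the 15 mitochondrial genes, the difference passed below 0 for Tars2 (-0.83), Vars2 (-0.77, from -0.76 in 2MUT and 0.02 with 2-HG) and Rars2 (-0.77), above 0 for Sars2 (0.93), and 11 did not pass. The Rars2 difference was lost in 11 of 16 alternative settings (adjusted p from 0.025 to 0.11) and the Sars2 difference in 8 of 16 (adjusted p from 0.012 to 0.081). The tables, the libraries' depth and the way cells were prepared differ between the comparisons, so experiment and treatment cannot be told apart in this difference.

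**Figure D4:**
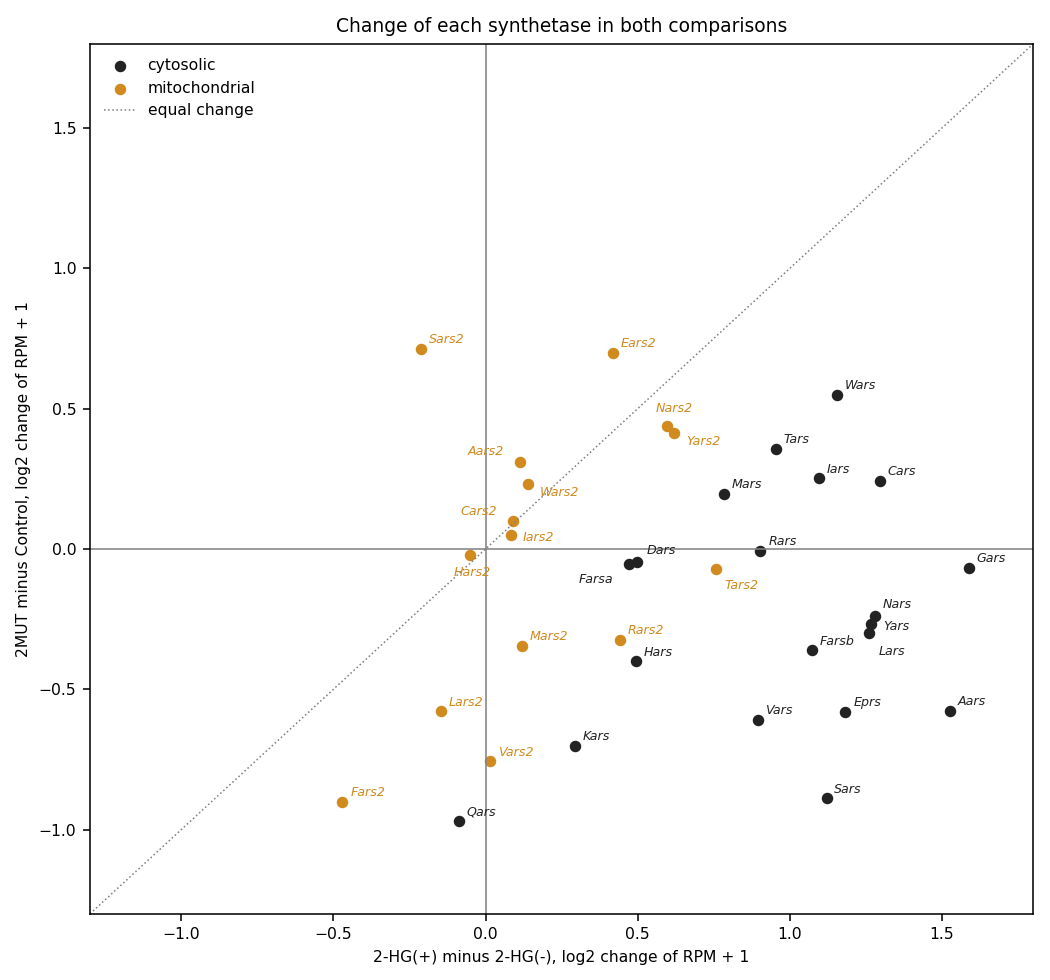
Log2 change of RPM + 1 with 2-HG (horizontal) and in 2MUT (vertical) for each synthetase gene tested in both, cytosolic in black and mitochondrial in orange, with a dotted line where the changes are equal. The 20 cytosolic genes lie below the dotted line, with Aars and Sars farthest from it, and Sars2 lies above it.

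Genes of the amino acid response and of neighbouring steps gave a setting for these values. Of 7 response genes, 6 were higher with 2-HG and 0 lower, beside 16.1% and 16.7% of all genes tested: Trib3 at 2.80, Asns, the asparagine synthetase, at 2.40, Chac1 at 2.16, Ddit3 at 1.99, Atf4 at 1.52 and Sesn2 at 0.91 on the log2 scale. Atf4 itself was at 399, 533 and 358 RPM in 2-HG(-) and 1250, 1189 and 1218 RPM in 2-HG(+) (adjusted p = 5.6e-05). Eif2ak4 did not pass (-0.13, adjusted p = 0.52). In 2MUT, where 16.5% of all genes tested were higher and 17.3% lower, Sesn2 (1.196) and Chac1 (0.66) were higher and Ddit3 was lower (-1.26, adjusted p = 0.00055). Each of these calls was lost in 1 of 16 settings, the unmoderated test (adjusted p = 0.064, 0.066 and 0.051). Atf4 was at 559, 522 and 612 RPM in Control and 644, 677 and 685 RPM in 2MUT and narrowly missed the threshold (0.25, adjusted p = 0.052). Asns overlapped between the groups there (0.30, adjusted p = 0.40). The difference between the comparisons passed below 0 for 5 of the 7, beside 19.5% of all genes tested, with Ddit3 at -3.25, Trib3 at -2.28, Asns at -2.09, Chac1 at -1.50 and Atf4 at -1.27.

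Outside the response genes, 23 related genes were listed, from the complex scaffold to amidation, editing, selenocysteine and elongation steps. With 2-HG 20 of them were tested, 7 were higher and 0 lower, beside the same 16.1% and 16.7%, with a median of 0.32. The mitochondrial elongation factors Tsfm (0.63), Gfm2 (0.45, a call lost in 9 of 15 settings) and Gfm1 (0.38) were higher, as were Pstk (0.73), a kinase of selenocysteine synthesis, and Dtd1 (0.44), which removes D-amino acids from tRNA. The 4 cytosolic elongation factors tested did not pass, at 0.23 to 0.37. In 2MUT 19 were tested, and neither count exceeded the shares of all genes tested, 16.5% higher and 17.3% lower. The 1 that was higher was Gfm1 at 0.66, and the 3 that were lower were Aimp1, the elongation factor subunit Eef1d (-0.53) and Eef2 (-0.35), which moves the ribosome along. The 2MUT calls of Gfm1 and Eef2 were each lost in 2 of 16 settings (highest adjusted p 0.11 and 0.12). A change of the RNA does not show a change in the enzyme or in tRNA charging, neither of which was analysed here.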

How the data were processed

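RNA of 12 MEF libraries was measured by targeted amplification (Ion AmpliSeq, 100 ng of RNA). The reads of a gene depend on what was amplified, so levels were not compared between genes. The authors aligned reads with TMAP to the AmpliSeq mouse reference, counted them per gene and deposited RPM, which scales each library's gene reads to a sum of 1000000. The genome build is not given in the sources used here. The 2 tables were normalised separately, hold 20445 names in common and were analysed apart. Although the study names 1 kit, 22835 names occurred only in the first table and 3485 only in the second. The reason for this mismatch is not known here. Depth came from the step of 1 read in RPM, with 100% of values whole within 0.05 reads.

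Values were transformed as log2(RPM + 1), genes averaging under 1 RPM were set aside, and each comparison was fitted using limma 3.58.1 (R 4.3.3) with its trend option. The p-values were adjusted by Benjamini-Hochberg over all genes tested, with a threshold of 0.05. Fold changes are on that scale, which understates those of low genes. The difference between comparisons was fitted over 12 libraries and 4 groups, leaving out names that had become dates. Alternatives were 0.1 in place of 1, other filters (none, 10 RPM), quantile and median-of-ratios scaling, limma without the trend, an unmoderated test, edgeR 4.0.16 and DESeq2 1.42.0 on the recovered reads, a replicate block, and the omission of single libraries. Procedures were tested on simulated data. Members and lists were chosen with earlier results of these data known. Members described in every library were those past the threshold with the largest changes, up to 6 in each direction and compartment, and their partners for the same amino acid, while others are given by ranges. No list was tested as a set.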

Additional observations from a re-analysis of the deposited data

Results flagged for a closer look

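The change in 2MUT differed from the change with 2-HG, by a test of the difference itself, for 22 of the 35 synthetase genes tested. The difference was below 0 for 21 and above 0 for 1, where 19.5% and 19.9% of all 9594 genes tested passed. The values below are the log2 change in 2MUT minus that with 2-HG. Among cytosolic genes they were -2.10 for Aars, -2.01 for Sars, -1.76 for Eprs, -1.66 for Gars, -1.56 for Lars, -1.53 for Yars, -1.52 for Nars, -1.50 for Vars and -1.43 for Farsb. They were -1.05 for Cars, -0.997 for Kars, -0.91 for Rars, -0.90 for Hars, -0.88 for Qars, -0.84 for Iars, -0.60 for Wars, -0.59 for Mars and -0.54 for Dars. Among mitochondrial genes they were -0.83 for Tars2, -0.77 for Vars2, -0.77 for Rars2 and 0.93 for Sars2. The Rars2 difference was lost in 11 of 16 alternative settings (adjusted p from limma of 0.025 to 0.11) and the Sars2 difference in 8 of 16 (0.012 to 0.081), while the other 20 were kept in the 16 settings.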

How the results depend on the processing

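Of the calls on synthetase genes, 18 of 24 with 2-HG, 7 of 14 in 2MUT and 20 of 22 in the difference were kept under all alternatives run. Of the related and response genes the text names, 9 of 13 calls with 2-HG, 1 of 7 in 2MUT and 10 of 11 in the difference were kept. No called gene of either kind changed direction. Libraries of the same replicate number showed no pairing across groups (correlations of deviations from -0.457 to 0.0708). Between unlike numbers they ran from -0.138 to 0.0888 in the first table and from -0.414 to 0.48 in the second. A block by number does not model the latter. With the replicate block 18 cytosolic genes were higher with 2-HG and 2 in 2MUT, and 11 were lower in 2MUT. In 2MUT the number of mitochondrial genes higher was 0 with 0.1 added, no filter, a 10 RPM filter, quantile normalization, no trend or the unmoderated test, and 2 with edgeR and DESeq2 on recovered reads. Their median was -0.072 at 10 RPM. The unmoderated test left 0 cytosolic genes higher in 2MUT, and with 2-HG 2 mitochondrial genes higher and 0 lower. No filter also left 0 lower there. With quantile normalization the cytosolic median with 2-HG was 1.03.

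Leaving out 1 library gave 1 to 2 cytosolic and 0 to 2 mitochondrial genes higher in 2MUT, with a mitochondrial median of -0.00309 to 0.16. With 2-HG it gave 2 to 5 mitochondrial genes higher and 0 to 1 lower, with a median of 0.033 to 0.25. The number of mitochondrial genes higher was 0 in 2MUT without Control replicate 1 or 3 or 2MUT replicate 2 or 3, and with 2-HG 2 were higher and 0 lower without 2-HG(-) replicate 1 or 3 or 2-HG(+) replicate 2. Cytosolic genes were higher with 2-HG in 18 to 19 cases and lower in 2MUT in 6 to 10. Kars was lost without any 1 of the libraries except 2-HG(+) replicate 1, Nars2 without 2-HG(-) replicate 1 or 3 or 2-HG(+) replicate 2 or 3, and Rars2 and Fars2 without 2-HG(-) replicate 1 or 3 or 2-HG(+) replicate 2. In 2MUT, Eprs was lost without Control replicate 1 or 2MUT replicate 1 or 2, Lars without Control or 2MUT replicate 1 or 2, Sars2 without Control replicate 1 or 3 or 2MUT replicate 2 or 3, and Hars without 2MUT replicate 2 (adjusted p = 0.056, and 0.0026 to 0.056 over the settings). The unmoderated test also lost Tars and Vars with 2-HG and Vars, Wars and Lars2 in 2MUT. Of the related genes, Gfm2 was lost with 2-HG without any 1 library except 2-HG(+) replicate 1, and Gfm1 without 2-HG(-) replicate 1 or 2-HG(+) replicate 3. In 2MUT, Aimp1 was lost without Control replicate 1 or 2MUT replicate 1 or 2, and Gfm1 without 2MUT replicate 2. The difference of Eef1d was lost without 2-HG(-) replicate 2 or 2-HG(+) replicate 2 or 3.

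Some genes that did not pass changed sign, among them Asns, which lay at 0.30 in 2MUT. Under quantile normalization, Rars in 2MUT was 0.0089 and the differences were -0.0435 for Cars2, -0.015 for Hars2 0.023 for Iars2 and -0.078 for Gfm2. Leaving out a library in 2MUT gave -0.16 to 0.12 for Farsa, -0.21 to 0.026 for Gars, -0.16 to 0.11 for Rars, -0.12 to 0.10 for Hars2 -0.00309 to 0.16 for Iars2, -0.18 to 0.49 for Eef1e1, -0.075 to 0.59 for Asns and -0.30 to 0.012 for Pstk. With 2-HG it gave -0.0890 to 0.38 for Aars2, -0.31 to 0.029 for Lars2, -0.067 to 0.30 for Mars2 -0.0443 to 0.0503 for Vars2 and -0.23 to 0.0074 for Eif2ak4. In the difference it gave -0.067 to 0.40 for Aars2, -0.0696 to 0.095 for Cars2, -0.0684 to 0.15 for Hars2, -0.11 to 0.075 for Iars2, -0.32 to 0.048 for Nars2, -0.17 to 0.33 for Gfm2, -0.34 to 0.11 for Aimp2 and -0.021 to 0.20 for Wars2. The cause of these shifts was not tested. Low reads limit the smaller mitochondrial genes, with Yars2 at 8 to 19 reads a library in the first table.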
